A study of Homo sapiens with 6 samples.

Results

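The genes described here are HRAS, NRAS, PIK3CA, AKT1 and MYC, the oncogenes tied to the MCF10 breast lineage. They were taken by symbol from the raw counts of 26484 listed genes, and all 5 were found. The libraries came from MCF10CA1a, a malignant human breast epithelial cell line, plated on gel-coated dishes of 500 Pa (soft, 3 libraries) or 8000 Pa (stiff, 3 libraries). All 6 cultures shared the same coating of growth factor-reduced Matrigel at 0.14 mg/ml and the same horse serum medium, refreshed on day 4, and RNA was taken on day 5. The labels give the RNA as cytosolic and the replicates as biological, numbered 1 to 3 at each stiffness. No label says that same-numbered cultures shared a day, so p-values measure the spread between these libraries. Only 1 cell line was used, and the 2 groups carried the same genome.

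As background, MCF10A is an immortalised, non-tumorigenic breast line. An activated HRAS gene was introduced into it to make MCF10AT, and MCF10CA1a was derived from xenografts of those cells and carries an activating PIK3CA mutation. HRAS and NRAS are small GTPases that pass signals from growth factor receptors to the RAF-MEK-ERK kinase cascade and to PI3K. PIK3CA encodes the alpha catalytic subunit of PI3K, which makes the membrane lipid that recruits AKT1, a serine/threonine kinase that restrains FOXO factors and raises mTORC1 activity. MYC is a transcription factor that pairs with MAX and promotes ribosome production and growth.

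HRAS and NRAS are paralogs, and reads can be assigned between them only where their sequences differ. Over the whole coding sequence, as read from GENCODE 29 transcripts (GRCh38), HRAS and NRAS were identical at 73.0% of 567 bases, and their longest shared run was 14 bases. No 50-base stretch of the HRAS, NRAS or MYC transcript occurred in a transcript of another annotated gene. The count tables hold no bases, so transcripts of an introduced and a native HRAS, or of a mutant and a normal PIK3CA, were counted together.

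Total counts ran from 8305601 to 18779742 per library. Levels are given in CPM, the count relative to the size of its library, after scaling by the trimmed mean of M values (TMM). Libraries differed in how expression depended on the GC content of the transcript. In 8000 Pa replicate 1, the trend over all tested genes stood 0.57 log2 units below the 6-library mean at the GC content of AKT1 (58.7%) and 0.61 above it at that of NRAS (38.4%). In 8000 Pa replicate 3 the same trend stood 0.26 above and 0.54 below, the opposite way. A gene was tested for stiffness where enough libraries reached a count of about 10, which 11517 genes did. NRAS, AKT1 and MYC were among them, and HRAS and PIK3CA were not. All 10 epithelial and mammary markers were tested, and they together reached 16768 to 38147 CPM.

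None of the 3 tested members was called by stiffness. The edgeR quasi-likelihood test, with Benjamini-Hochberg adjustment over all genes at a false discovery rate (FDR) of 0.05, called 0 of the 3, where 0% of all 11517 tested genes were called. At an unadjusted p under 0.05 it also found 0 of the 3, against 2.45% of all genes. With the replicate number as a block 0 of the 3 were called, against 0.53% of all genes. DESeq2 and limma-voom called 0 of the 3 as well.

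NRAS read at 48.1, 49.2 and 26.2 CPM in the 500 Pa replicates 1, 2 and 3, and at 46.2, 29.9 and 24.02 CPM in the 8000 Pa replicates. The groups overlapped, and replicate 3 was the lowest library at both stiffnesses. The group levels were 41.2 ± 13.0 and 33.4 ± 11.5 CPM (SD, n = 3 each). The log2 fold change of 8000 Pa over 500 Pa was -0.30 (SE 0.35, 95% interval -1.05 to 0.44, adjusted p = 1.00 by edgeR). NRAS was lower on the stiff gel in each of the 3 pairs of same-numbered libraries, at -0.06, -0.71 and -0.12 on the log2 scale, and 15.2% of all tested genes were lower in all 3. In bulk RNA, fewer cells with a transcript and less transcript per cell cannot be told apart.

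HRAS was barely read. It had 23, 3 and 8 counts in the 500 Pa replicates and 5, 1 and 19 counts in the 8000 Pa replicates, or 1.29, 0.335 and 1.14 CPM against 0.399, 0.106 and 1.89 CPM. The lowest and the highest library were both on the stiff gel, 8000 Pa replicates 2 and 3, with 95% Poisson intervals of 0.00267 to 0.589 and 1.14 to 2.96 CPM. The ratio of the summed counts, 25 at 8000 Pa and 34 at 500 Pa, was 0.777 once scaled to depth (95% interval 0.444 to 1.34). Poisson intervals and this ratio's interval cover counting error only. The stiff libraries differed by more than that, while the intervals of the 500 Pa libraries overlapped. 8000 Pa replicate 3 held 76% of the counts on the stiff gel. The log2 ratio of the group mean CPM was -0.20 with all libraries and -1.83 without that library, and it ran up to 0.32 when another single library was left out (8000 Pa replicate 2), so its direction rests on single libraries.

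The annotation around HRAS bears on how its count is read. The RefSeq gene LRRC56, at 0 to 2 counts per library, spans the whole of HRAS, while in GENCODE 29 no exon base of the HRAS transcript used overlapped another gene. How reads over overlapping genes were counted is not given in the sources used here. EIF4A1, a translation initiation factor of nearly every cell, is listed at 0 in all 6 libraries, and MYCBP, which encodes a MYC-binding protein, had 0 to 3 counts. Both were looked up after their values were seen, and each lies wholly inside a read-through gene in RefSeq, SENP3-EIF4A1 and GJA9-MYCBP, themselves at 0. Whether overlap lowered the HRAS count was not tested.

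Per kilobase of transcript, NRAS stood at 8.37 ± 2.64 CPM per kb over the 6 libraries (SD) and HRAS at 0.748 ± 0.600 CPM per kb. The lowest NRAS library, at 5.40 CPM per kb, was above the highest HRAS library, at 1.65 CPM per kb. NRAS thus led HRAS in 6 of 6 libraries.

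**Figure D1:**
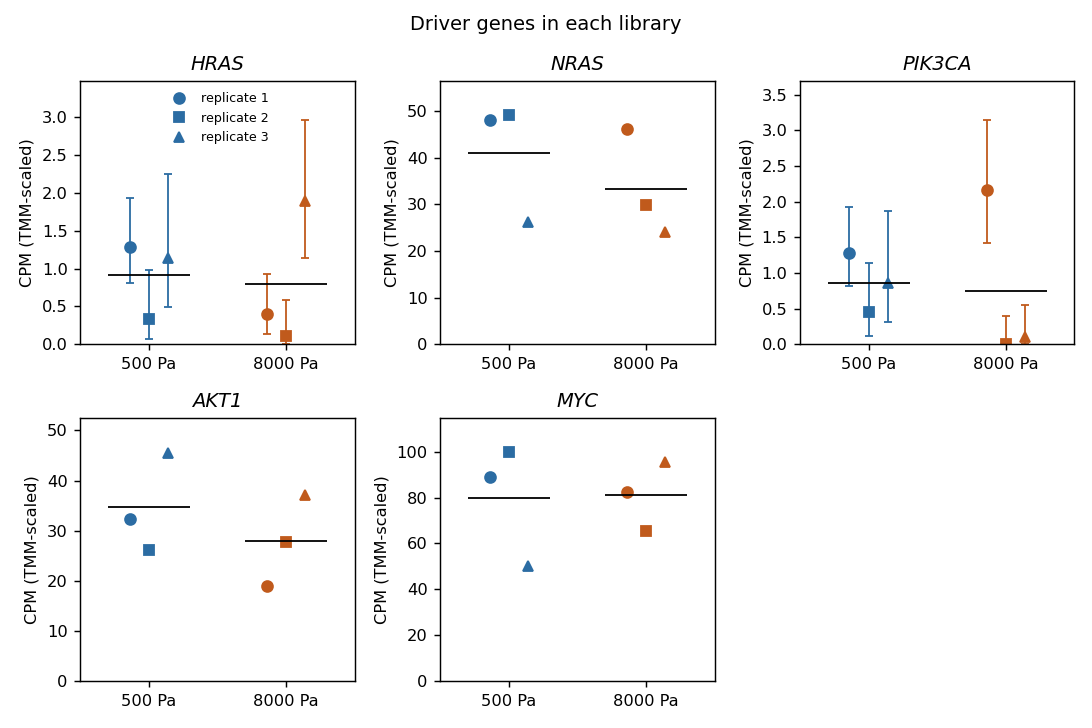
Each panel plots TMM-scaled CPM of 1 gene in the 3 libraries at 500 Pa (blue) and the 3 at 8000 Pa (orange), with circles, squares and triangles for replicates 1, 2 and 3, and a black line at the group mean. Vertical bars on HRAS and PIK3CA are 95% Poisson intervals. The 2 groups overlap in every panel, and PIK3CA at 8000 Pa rests on replicate 1 at 2.16 CPM.

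**Figure D2:**
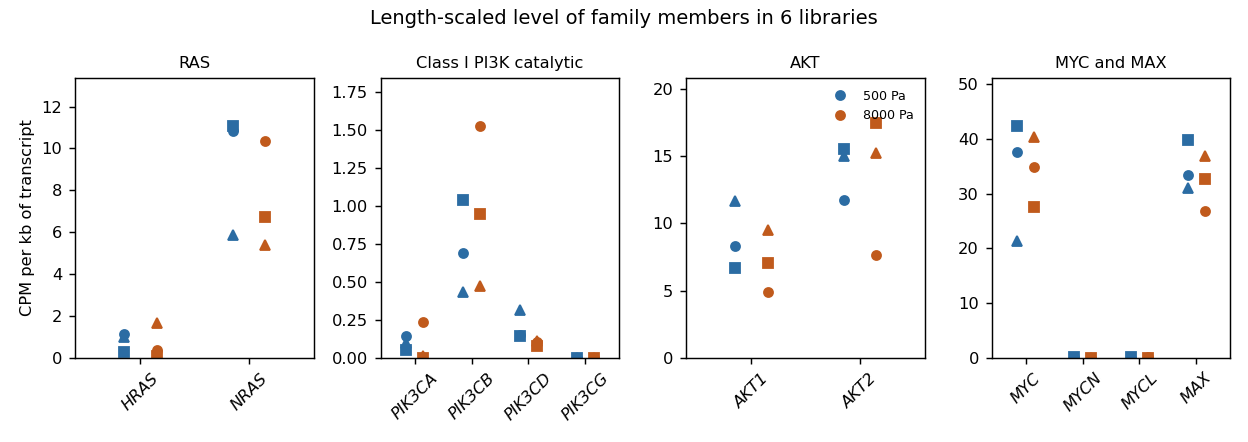
The vertical axes give CPM per kilobase of transcript for genes of 4 families in each of the 6 libraries, on linear scales that differ between panels, with blue for 500 Pa, orange for 8000 Pa and the same replicate symbols. NRAS, PIK3CB, AKT2 and MYC with MAX are the high members of their panels, and PIK3CG, MYCN and MYCL lie at or near 0.

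Genes that act on RAS were read well but not called. Exchange factors load RAS with GTP, and adaptors act with them. Of 8 tested genes of these kinds 0 passed, and the median log2 fold change was 0.26, where the median of all tested genes was 0.01. The most abundant were the adaptors SHC1, at 128 ± 25.3 against 132 ± 36.0 CPM, and GRB2, at 84.6 ± 34.0 against 97.5 ± 30.2 CPM (500 Pa first, here and below). Of 9 tested GTPase-activating proteins, which switch RAS off, 0 passed, with a median of 0.20. RASAL1 had 104 ± 13.1 against 82.4 ± 17.6 CPM and SPRED2, which brings NF1 to RAS, 33.9 ± 7.22 against 39.0 ± 4.86 CPM.

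The enzymes that lipid-modify RAS and carry it to membranes had a median of -0.17 over 10 tested genes, and 0 passed. ICMT, the methyltransferase that finishes the RAS tail, had 114 ± 59.2 against 148 ± 41.9 CPM, and the thioesterase LYPLA2 had 128.5 ± 33.6 against 99.997 ± 40.4 CPM. The 10 RAS-related GTPases had a median of 0.04, and RALB and RHEB led them at 53.6 ± 8.76 against 60.7 ± 14.3 and 46.7 ± 7.92 against 52.5 ± 8.67 CPM. Again 0 passed.

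Downstream of RAS, 0 of 12 tested RAF-MEK-ERK kinases and scaffolds passed (median 0.10). ARAF, a RAF kinase, had 147 ± 42.2 against 108 ± 35.5 CPM, and the RAF inhibitor PEBP1 had 412.5 ± 85.3 against 439 ± 52.8 CPM. Genes that ERK activity is known to raise had a median of 0.28, with 12 of 16 above 0 and 0 passing. Of all 11517 tested genes 5901 were above 0. With the GC offset the median of these 16 was 0.19, with 3 below 0. Their medians in the 3 pairs of same-numbered libraries were 0.20, -0.04 and 0.41. The ERK phosphatase DUSP6 had 48.7, 71.7 and 49.7 CPM at 500 Pa and 68.4, 60.01 and 80.9 CPM at 8000 Pa, and these groups overlapped. CCND1, the cyclin that drives entry into the cell cycle, had 23.4 ± 16.4 against 32.7 ± 7.70 CPM (log2 change 0.48 with an SE of 0.43, edgeR adjusted p = 1.00, and 0.298 with the replicate block). DUSP4, another phosphatase of the pathway, had 279 ± 69.7 against 306 ± 47.6 CPM, and PHLDA1 138 ± 46.4 against 109 ± 23.6 CPM.

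PIK3CA had 23, 4 and 6 counts at 500 Pa and 27, 0 and 1 counts at 8000 Pa, or 1.29, 0.447 and 0.857 CPM against 2.16, 0 and 0.0997 CPM. The stiff group held both the highest library and the lowest, and replicate 1 gave 96.4% of its counts. The 0 in 8000 Pa replicate 2 allows up to 0.317 CPM, taking 3 counts as the limit, and its 95% Poisson interval reaches 0.390 CPM. The group means were 0.863 ± 0.419 and 0.752 ± 1.22 CPM, a log2 ratio of -0.20, and without 8000 Pa replicate 1 the ratio was -4.11. The interval of that library, 1.42 to 3.14 CPM, did not meet that of 8000 Pa replicate 3, 0.00252 to 0.555 CPM. PIK3CA has the lowest GC content of the 5 genes, 34.8%, and the stiff library with the most PIK3CA is the one whose trend favoured transcripts of low GC content. The part of that trend in the PIK3CA counts was not tested, since the gene did not enter the tested set.

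PIK3CA overlaps a neighbouring gene in the annotation, and what that did to its count was not tested. The gene lies on chromosome 3 from 179148114 to 179240093 (GRCh38), and in GENCODE 29 37.4% of the exon bases of its transcript, which is 9093 bases long, also lie in exons of KCNMB3 on the other strand. KCNMB3 itself had 0 or 1 count per library. Of the 50-base stretches of the transcript, 39.5% occurred in transcripts of other genes on either strand, most of them of KCNMB3 and its pseudogene KCNMB3P1. Per kilobase, PIK3CA stood below 99.9% of the tested genes. That set leaves out genes of low count, PIK3CA among them, so a low rank against it was nearly fixed in advance.

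PIK3CB, which encodes the beta catalytic subunit, was the most read of the catalytic genes, at 4.08, 6.15 and 2.57 CPM on soft gels and 9.03, 5.599 and 2.79 CPM on stiff gels (log2 change 0.44 with an SE of 0.50, edgeR adjusted p = 1.00). PIK3CA made up 14.4%, 3.996% and 11.2% of the length-scaled catalytic pool at 500 Pa and 12.7%, 0% and 1.85% at 8000 Pa. Each stiff library was below the soft library of the same number, and the groups overlapped (9.86% ± 5.32 against 4.86% ± 6.87, n = 3 each, two-sided exact permutation p = 0.3, where 0.1 is the smallest possible, and adjusted p = 1.00 over the 7 family measures tested). PIK3CG, a subunit of blood cells, was at 0 in all 6 libraries. Of the regulatory subunits, PIK3R3 led at 68.6 ± 12.6 against 92.7 ± 35.1 CPM and PIK3R2 followed at 5.99 ± 0.838 against 5.88 ± 3.73 CPM. Across the class I subunits 4 genes were tested and 0 passed.

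The lipid and protein phosphatases that oppose PI3K were not called either, with 0 of 10 passing and a median of 0.12. INPP5K had 76.1 ± 33.0 against 61.3 ± 24.2 CPM, and INPP4B 21.9 ± 2.21 against 28.0 ± 6.34 CPM.

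AKT1 had 32.4, 26.2 and 45.6 CPM at 500 Pa and 19.0, 27.7 and 37.1 CPM at 8000 Pa. Replicate 3 was the highest library in both groups, 8000 Pa replicate 1 was the lowest of all, and the groups overlapped. The means were 34.7 ± 9.92 and 27.9 ± 9.04 CPM (SD, n = 3 each), with a log2 fold change of -0.31 (SE 0.34, 95% interval -1.04 to 0.42, adjusted p = 1.00 by edgeR). AKT2, the paralog prominent in insulin signalling, was the more abundant per kilobase in 6 of 6 libraries, at 13.8 ± 3.51 against 7.998 ± 2.37 CPM per kb for AKT1. The AKT1 gene is on chromosome 14 from 104769349 to 104795751, and 16.9% of the exon bases of its transcript are shared with the antisense locus AL583722.2.

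AKT1 deviated to the same side as the GC trend of its library in 6 of 6 libraries, NRAS in 5 and MYC in 1. AKT1 deviated from its 6-library mean by 0.10, -0.20 and 0.59 log2 units at 500 Pa and by -0.66, -0.12 and 0.30 at 8000 Pa, where the trend of all genes at its GC content stood at 0.02, -0.04 and 0.36, then -0.57, -0.02 and 0.26. Subtracting the trend lowered the SD of AKT1 over the 6 libraries from 0.43 to 0.15 and that of NRAS from 0.47 to 0.28. For MYC (53.9% GC) the SD went from 0.38 to 0.45. With a GC offset in the edgeR fit, the fold change of AKT1 was -0.12 (SE 0.20) and that of NRAS -0.36 (SE 0.21, 95% interval -0.81 to 0.09), with adjusted p values of 0.958 and 0.876. With the GC offset and the replicate block together, NRAS was at -0.36 (SE 0.18, adjusted p = 0.445 by edgeR). These fits called 0 of the 3 members, where the second called 0.66% of all tested genes.

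**Figure D3:**
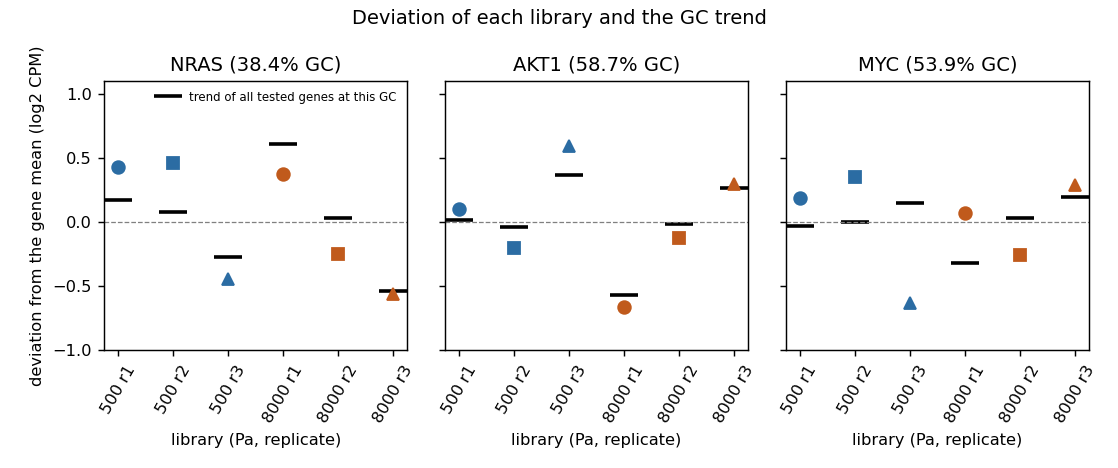
Points give the deviation of NRAS, AKT1 and MYC from their own 6-library mean in log2 CPM, by library, and black bars give the trend of all tested genes at the same transcript GC content. The AKT1 points lie within 0.23 of the bars, while MYC in 500 Pa replicate 3 lies 0.78 below its bar.

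**Figure D4:**
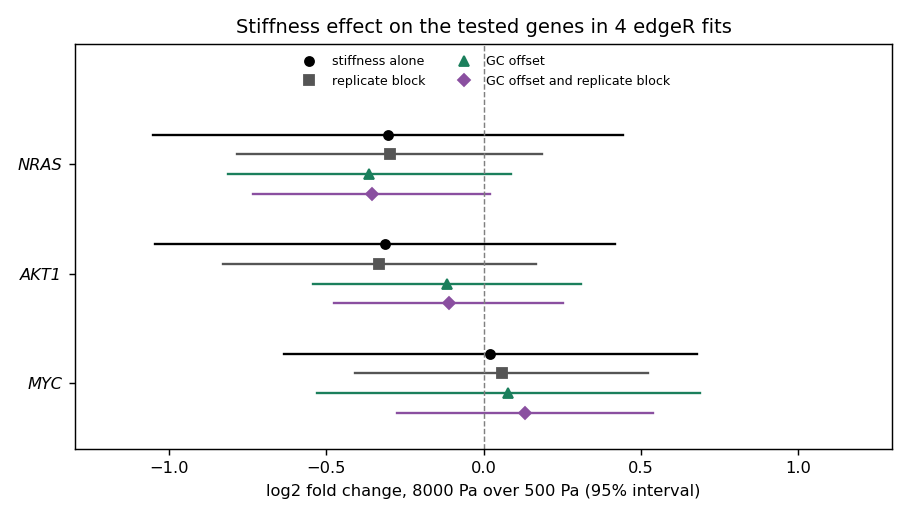
Log2 fold changes of 8000 Pa over 500 Pa with 95% intervals for the 3 tested members in 4 edgeR fits, with the dashed line at no change. All 12 intervals cross 0, and those of all 3 members are narrower with the GC offset, those of MYC by the least.

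Around AKT1, 0 of 8 tested AKT kinases and activators passed (median -0.09). MLST8, a subunit of both mTOR complexes, had 113 ± 28.7 against 82.2 ± 32.5 CPM. Of 17 tested AKT substrates and mTORC1 genes 0 passed, with a median of -0.15 that was -0.05 with the GC offset. The most abundant were EIF4EBP1, a brake on translation that mTORC1 releases, at 363 ± 89.4 against 257 ± 116 CPM, and the S6 kinase gene RPS6KB2 at 182 ± 80.6 against 117 ± 42.8 CPM. Their log2 fold changes of -0.50 and -0.64 became -0.19 and -0.34 with the GC offset.

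Genes that FOXO factors are known to raise when AKT is less active had a median of 0.27 over 13 tested, with 11 above 0 and 0 passing. Of all 11517 tested genes 5901 were above 0. With the GC offset 7 of the 13 were above 0, and without 8000 Pa replicate 1 the median was -0.01. TXNIP, which limits glucose uptake, had 762.5 ± 102 against 638.5 ± 53.96 CPM, and BCL6, a repressor of transcription, had 90.0 ± 21.9 against 113 ± 15.8 CPM.

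MYC was the most abundant of the 5 genes, at 89.1, 100.05 and 50.3 CPM at 500 Pa and 82.4, 65.4 and 95.4 CPM at 8000 Pa. The soft group held both the highest and the lowest library, so the groups overlapped fully. The means were 79.8 ± 26.1 and 81.05 ± 15.05 CPM (SD, n = 3 each), and the log2 fold change was 0.02 (SE 0.30, 95% interval -0.63 to 0.68, adjusted p = 1.00 by edgeR). On the linear scale the interval runs from 0.644-fold to 1.60-fold. The 3 pairs gave -0.11, -0.61 and 0.92 on the log2 scale. Leaving out 500 Pa replicate 3 gave -0.17, and leaving out 8000 Pa replicate 3 gave -0.07.

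MYC stood alone in its family. Over the 6 libraries MYCN had 6 counts and MYCL 7 counts, and MYC made up 99.6% to 100% of the pool. MAX, the obligate partner, had 53.7 ± 7.11 against 49.6 ± 7.82 CPM and varied less over the 6 libraries than MYC, with a coefficient of variation of 13.6% against 23.7%. Per kilobase of transcript the MYC and MAX levels were close, at 34.0 ± 8.07 and 33.4 ± 4.55 CPM per kb, and the log2 ratio of MYC to MAX was -0.09 ± 0.39 and 0.09 ± 0.31 (two-sided exact permutation p = 0.6, n = 3 each, adjusted 1.00). That closeness depends on the length used. Per kilobase of coding sequence the mean log2 ratios were -0.98 at 500 Pa and -0.80 at 8000 Pa. Without division by length they were 0.52 and 0.70. Over the MYC network 10 genes were tested and 0 passed. MLX, the partner shared by the glucose-sensing arm of the network, had 150 ± 37.8 against 133 ± 29.9 CPM.

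Among regulators of the MYC protein, 0 of 15 passed and the median was 0.15 (0.03 with the replicate block). AURKA, a mitotic kinase that shields MYC proteins from destruction, had 190.05, 169 and 141 CPM at 500 Pa and 366, 225 and 237 CPM at 8000 Pa. Every stiff library was above every soft one, as for 4.02% of all tested genes, and its log2 fold change was 0.73 with an SE of 0.27 (edgeR adjusted p = 1.00). With the replicate block its adjusted p was 0.162, with a GC offset added to the block it was 0.0889 (log2 change 0.56), and with a length offset added to the block it passed (adjusted p = 0.0234). The phosphatase inhibitor SET had 290.5 ± 57.1 against 305 ± 108 CPM.

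The MYC target list held 32 tested genes, mostly of ribosome assembly and nucleotide or polyamine supply, and 0 passed. In all, 23 of the 32 lay below 0, against 5616 of all 11517 tested genes, and the median was -0.25, or -0.22 with the GC offset. The medians in the 3 pairs were -0.58, -0.18 and -0.00. In the fit with the replicate block 8 of the 32 were lower and 0 higher at an unadjusted p under 0.05, as were 6.12% of all tested genes in that direction. With the GC offset added to the block 2 of the 32 were lower and 0 higher, against 6.13% of all tested genes lower. With the GC offset alone 1 was lower and 0 higher, against 291 of all 11517 tested genes lower. For 4 of the 32 every stiff library was below every soft one, as for 2.85% of all tested genes, and for 0 every stiff library was above. The 3 genes of the list named by rule had values above 0. ODC1, the first enzyme of polyamine synthesis, had 209 ± 48.7 against 274 ± 121 CPM (log2 change 0.39 with an SE of 0.32, edgeR adjusted p = 1.00). LDHA, lactate dehydrogenase, had 2418 ± 574 against 2918 ± 463 CPM, and the nucleolar chaperone NPM1 had 621 ± 183 against 656 ± 199 CPM. ODC1 and LDHA were higher on the stiff gel in 3 of 3 pairs, as were 14.6% of all tested genes.

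**Figure D5:**
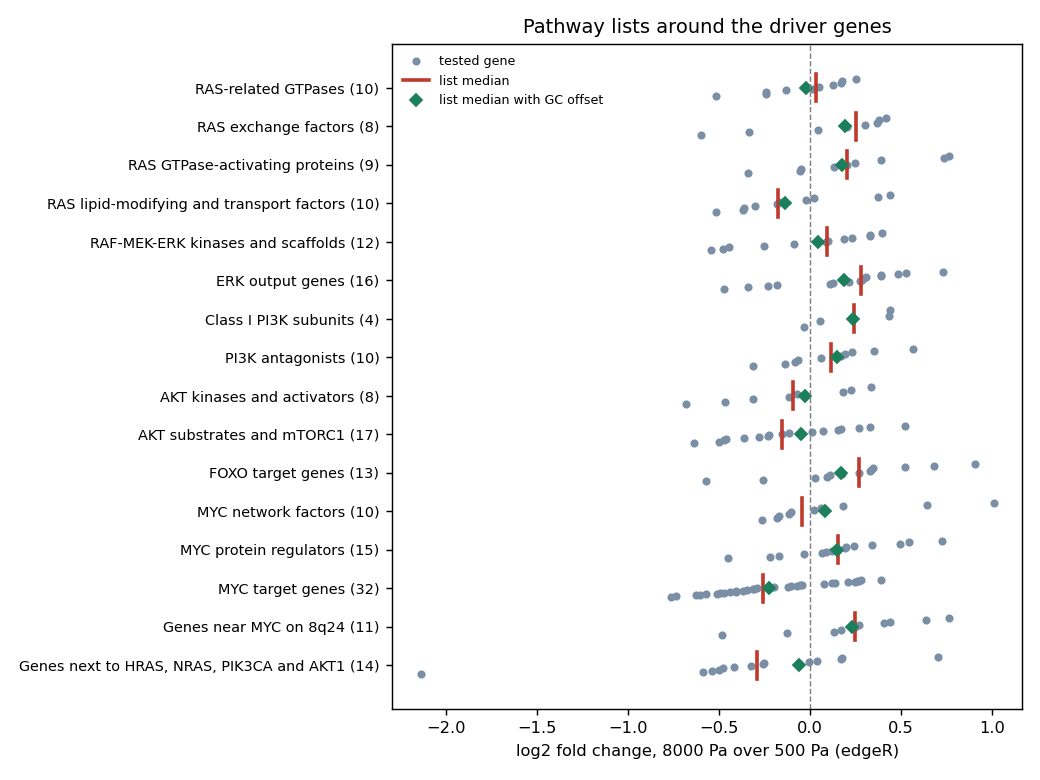
Each grey dot is the edgeR log2 fold change of 1 tested gene, each red bar the median of its list and each green diamond the median with the GC offset, with the number of tested genes after each list name. List medians lie between -0.29 and 0.28.

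Over the 15 lists of pathway genes, counting each gene once, 175 genes were tested and 0 were called by edgeR, with or without the replicate block, by DESeq2 with or without it, or by limma-voom. At an unadjusted p under 0.05 there was 1 gene without the block, against 2.45% of all tested genes, and 21 genes with it, 7 higher and 14 lower, against 10.6% in either direction. With the GC offset added to the block the split turned round, to 15 higher and 7 lower of 22 genes, against 12.3% of all tested genes in either direction. The split over all tested genes shifted as well. It was 517 higher and 705 lower with the block, and 715 higher and 706 lower with the GC offset added. Non-overlapping groups were found for 15 of the 175, or 8.57%, against 6.87% of all tested genes.

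The genes beside the members were read as well, because MCF10 lines are known for extra copies around MYC. Of 14 genes near MYC on 8q24 11 were tested and 0 passed, with a median of 0.25. FAM84B had 79.5 ± 70.9 against 105 ± 41.8 CPM, and SQLE, an enzyme of cholesterol synthesis, had 43.8 ± 19.2 against 68.2 ± 17.3 CPM. Both stayed uncalled in 19 of 20 alternatives run, and each passed in the remaining one. Among the 14 tested neighbours of the other 4 genes 0 passed, and the median of -0.29 was -0.06 with the GC offset. SIVA1, next to AKT1, had 328 ± 98.3 against 226 ± 93.6 CPM.

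As background, MCF10A lines are known to lack the CDKN2A locus. CDKN2A and CDKN2B, which encode brakes on cyclin-dependent kinases, were at 0 in all 6 libraries. EIF4A1 was at 0 in all 6 as well, and the cause of a 0 in these data was not tested. CDKN1A, a cell cycle inhibitor, had 40.8 ± 13.0 against 34.2 ± 12.4 CPM.

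The genes whose profiles over the 6 libraries were most like those of the tested members were sought among the 7274 genes whose count was 50 or more in each library, by the root mean square difference of mean-centred log2 CPM. For AKT1 these were RRP7A, SLC25A11 and CYB5R3, at 0.02, 0.02 and 0.03 log2 units, and 1190 genes lay within 0.2. For NRAS they were NCK1, IFRD1 and AP1S3, at 0.10, 0.10 and 0.11, with 97 genes within 0.2. For MYC they were LINC00987, QRFPR and ERC1, at 0.11, 0.13 and 0.14, with 45 within 0.2. The 3 genes nearest to AKT1 had GC contents of 57.8% to 58.3%, close to its own 58.7%, and those nearest to NRAS 36.1% to 41.8%.

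Markers of other cells were read at unlike levels, and those of fibroblasts were the lowest in sum. Of the fibroblast markers COL1A2, COL3A1, LUM and THY1 were at 0, and the 7 together had at most 4.65 CPM, led by COL1A1 at 1.20 ± 0.678 against 2.15 ± 1.48 CPM and by PDGFRB at 0.112 ± 0.194 against 0.282 ± 0.488 CPM. Of the leukocyte markers PTPRC and CD3E were at 0, CD68 had 22.6 ± 11.4 against 18.9 ± 5.77 CPM and CD14 8.98 ± 2.28 against 13.6 ± 6.34 CPM. Of the endothelial markers, PECAM1 and CDH5 passed with the replicate block (log2 change 1.01 and 1.99, edgeR adjusted p = 0.00537 and 3.14e-04, and 1.00 each without the block), while TEK and CLDN5 were at 0. Summed, the 7 endothelial markers had 100.2 to 156 CPM at 500 Pa and 213 to 258 CPM at 8000 Pa. The fat-cell genes LPL and FABP4 passed with the block as well (2.43 and 2.12, edgeR adjusted p = 6.81e-05 and 5.26e-04, and 0.642 and 1.00 without it), with ADIPOQ and LEP at 0. DESeq2 without the block also called LPL and FABP4 higher, and called 0 of the 3 tested endothelial markers. The neural tubulin TUBB3 had 112 ± 38.5 against 67.4 ± 25.02 CPM, and the keratins KRT8 and KRT15, which were the most abundant epithelial markers, 11249 ± 3608 against 9061 ± 3224 and 10566 ± 1083 against 8251 ± 2096 CPM. For KRT15 every stiff library was below every soft one, as for 2.85% of all tested genes, and it did not pass (edgeR adjusted p = 1.00). The part of these genes in the members' values was not tested.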

How the data were processed

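RNA was sequenced from 6 cultures, 3 per stiffness. The authors deposited 1 table per library with a raw count and a TMM-scaled log2 value per gene symbol, per the file headers. HISAT2 2.1.2, HTSeq 0.11.4 and GRCh38 are named in the submitters' processing notes, with limma and DESeq2. Strand setting, overlap handling, library kit and annotation were not stated by these sources. The deposited log2 values of NRAS, AKT1 and MYC differed from those computed here by at most 0.0815, and HRAS and PIK3CA have none. No value column belonged to another series (0 columns).

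Counts were filtered by filterByExpr (minimum count 10, minimum total 15), scaled by TMM and tested with edgeR 4.0.16 in R 4.3.3, stiffness alone, with Benjamini-Hochberg adjustment at an FDR of 0.05. Alternatives used DESeq2 1.42.0, limma 3.58.1, other scaling and filters, the replicate block, offsets from a lowess trend (span 0.3) on GC or log length, and left-out libraries. With the block only 2 residual degrees of freedom remain, and edgeR estimated infinite prior degrees of freedom, so no gene had a spread of its own in that fit. The deviations of same-numbered libraries from their group means correlated across genes at 0.409, 0.184 and 0.516, above the 0.1 required. An unlike-numbered pair, 500 Pa replicate 2 with 8000 Pa replicate 1, reached 0.199. That is above the 0.184 of same-numbered pair 2, so the check does not single out pair 2. The block took same-numbered libraries as pairs, though no label states that they belong together. No 2 libraries were duplicates (chi-square per degree of freedom of at least 11.6). In single pairs, log2 ratios used CPM + 0.5. The floor for a count of 0 was 3 counts, or 0.168 to 0.429 CPM. Transcript length, GC content and exon overlap came from GENCODE 29, using the longest basic protein-coding transcript with at least 95% of the longest coding length, and 95.5% of tested genes had a value. Gene spans came from RefSeq GRCh38.p14. Family measures were compared with exact permutation tests in SciPy 1.17.1. The steps were tested on simulated data.

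The members, lists and tests were chosen with earlier results of these data known. The named genes are the 5 members, a fixed set that includes PIK3CB, AKT2, MAX, DUSP6, CCND1, ODC1 and CDKN2A, the 2 members of each list with the highest mean CPM, list members that passed with or without the block, and the 3 nearest profiles of each tested member. EIF4A1, MYCBP, LRRC56 and KCNMB3, and family members, markers at 0 and CDKN2B named beside them, were added after their values were seen. Some results of this rule and of the family measures are not reported here.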

Additional observations from a re-analysis of the deposited data

How the results depend on the processing

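The number of genes called, 0 by edgeR on stiffness alone, was 61 with the replicate block, 7 with DESeq2, 42 with DESeq2 and the block, 8 with no filter, 80 with no filter and the block (added after seeing the data), 76 with the GC offset and block, 65 with the length offset and block, and 38, 81 and 12 with the block and without pairs 1, 2 and 3. It was 0 to 1 when each library was left out in turn. Same-numbered libraries were treated as pairs by the block, and it changed no call among the 3 tested members. NRAS and AKT1 stayed below 0 in all 20 alternatives run, but ran from -0.61 to -0.072 and from -0.56 to -0.026 when a library was left out, while MYC was above 0 in 17 of 20. With the GC offset, log2 values were AKT2 0.074, NPM1 -0.076, PIK3R2 0.21 and SET -0.11, and list medians were genes next to HRAS, NRAS, PIK3CA and AKT1 -0.057. With the GC offset and block, log2 values were AKT2 0.061, LINC00987 -0.032, NPM1 -0.067, PIK3R2 0.18 and SET -0.12, and list medians were genes next to HRAS, NRAS, PIK3CA and AKT1 -0.032. With the length offset, log2 values were AP1S3 0.0020, ERC1 -0.025 and MAX 0.025. With the length offset and block, log2 values were AP1S3 0.014, ERC1 -0.023, MAX 0.039 and SHC1 -0.0018. With no filter, list medians were adipocyte and neural markers -0.17. With no filter and the block, list medians were adipocyte and neural markers 0.0028. With the block and without pair 1, log2 values were PIK3CA (log2 ratio of mean CPM) -3.68, AKT2 0.11, CD68 0.0030, CDKN1A 0.094, MAX 0.000855, PIK3CB -0.0054, PIK3R2 0.21, RALB -0.024 and SET -0.11, and list medians were RAS exchange factors 0.081 and FOXO targets -0.0030. With the block and without pair 2, log2 values were AP1S3 0.14 and SHC1 -0.15, and list medians were RAS lipid-modifying factors -0.36 and genes next to HRAS, NRAS, PIK3CA and AKT1 -0.53. With the block and without pair 3, log2 values were MYC -0.31, CD68 0.079, ERC1 -0.078, LINC00987 -0.21, PEBP1 -0.032 and QRFPR -0.012, and list medians were RAS lipid-modifying factors -0.064 and genes next to HRAS, NRAS, PIK3CA and AKT1 -0.076. Leaving out each library in turn, the log2 value ran over HRAS (ratio of means) -1.83 to 0.32, MYC -0.17 to 0.21, PIK3CA (ratio of means) -4.11 to 0.39, AKT2 -0.30 to 0.21, AP1S3 -0.46 to 0.070, CD68 -0.51 to 0.26, CDKN1A -0.52 to 0.020, DUSP4 -0.022 to 0.32, ERC1 -0.060 to 0.27, GRB2 -0.069 to 0.58 and INPP5K -0.56 to 0.13. For further tested genes whose sign changed it ran over LINC00987 -0.095 to 0.33, MAX -0.20 to 0.0023, MLX -0.36 to 0.067, NCK1 -0.54 to 0.016, NPM1 -0.14 to 0.33, ODC1 -0.018 to 0.62, PIK3CB -0.034 to 0.82, PIK3R2 -0.66 to 0.25, SET -0.25 to 0.30 and SHC1 -0.14 to 0.25. List medians ran from 0.057 to 0.39 for RAS exchange factors, -0.25 to -0.056 for RAS lipid-modifying factors, -0.047 to 0.21 for RAF-MEK-ERK genes, -0.31 to 0.051 for AKT kinases and activators, -0.011 to 0.34 for FOXO targets, 0.090 to 0.46 for genes near MYC, -0.42 to 0.030 for genes next to HRAS, NRAS, PIK3CA and AKT1, 0.050 to 0.61 for leukocyte markers and 1.74 to 2.43 for adipocyte and neural markers. Differences in family measures (8000 Pa minus 500 Pa, percentage points for shares) ran from -0.042 to 0.35 for the log2 MYC over MAX ratio. Of 1651 recomputed values 1516 kept direction and call or, where there was no test, stayed within the replicate spread (the HRAS values that changed sign among them), 64 others changed sign, 36 moved and 35 passed a threshold they had missed. The cause of these changes was not tested. HRAS and PIK3CA had 1 to 23 and 0 to 27 counts in a library.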
